A study of Mus musculus with 6 samples.

Results

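Cell cycle transcripts were followed through 53 genes chosen by name from the 15473 genes of the deposited single-cell table, and all 53 were present. 24 of them act in or around S phase, 25 act in G2 and mitosis, and 4 are broadly expressed genes whose transcripts climb in dividing cells. The rule goes by gene name and uses no measured value, and it was set with earlier results of these data known. Levels are UMIs (unique molecular identifiers, 1 per captured transcript) per 1000000 UMIs of the same cells, written CPM, with hashtag counts left out. CPM is not corrected for transcript length, so levels were compared between samples and not between genes.

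The cells were CD4 T cells of the mouse colonic lamina propria, sorted into tdTomato+GFP+ and tdTomato-GFP- cells and sequenced with their T cell receptors. Both gates came from mice labelled Foxp3{delta}EGFPiCre/WT R26lsl-tdTomato/wt, and the labels do not explain the delta. In alleles of this kind iCre removes a floxed stop before tdTomato, so tdTomato passes to the progeny of cells in which iCre acted, while GFP depends on current transcription of the allele. The 3 biological replicates of a gate were hashed and run together on 1 droplet lane, so that the lane cannot be told apart from the gate.

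The tdTomato+GFP+ replicates held 1747, 4610 and 2408 cells and the tdTomato-GFP- replicates 5159, 3114 and 1836 cells, 18874 in all. UMIs per replicate ran from 7424984 to 23289046, and median UMIs per cell from 3502 to 3905. The T cell genes Cd3e and Cd4 were detected in 97.7% and 79.8% of tdTomato+GFP+ cells and in 94.9% and 68.5% of tdTomato-GFP- cells. Foxp3 averaged 126 ± 16 CPM in tdTomato+GFP+ cells and 179 ± 13.4 CPM in tdTomato-GFP- cells (SD, n = 3 each), with a UMI in 33.6% and 21.7% of their cells, so tdTomato-GFP- cells were not free of Foxp3 transcripts. Il17a averaged 10857 ± 1801 CPM in tdTomato+GFP+ cells and 1726 ± 240 CPM in tdTomato-GFP- cells. In sums over all cells of a replicate, fewer cycling cells and less RNA per cycling cell cannot be told apart.

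A cell that commits to division first licenses its DNA by loading the MCM2-7 helicase at origins, then copies it with the help of the PCNA clamp while thymidylate synthase, ribonucleotide reductase and dUTPase supply nucleotides and new histones package the copies. Cyclin A and cyclin B with CDK1 then drive G2 and mitosis, in which the chromosomal passenger complex, kinetochore proteins and kinesins move the chromosomes and the anaphase-promoting complex ends the process. In the gut, CD4 T cells that meet antigen divide and form clones that share a receptor, which allows these genes to be read against clone size.

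The promoters of a pair of S genes and a pair of mitotic genes are shown because these 4 had the highest CPM of their set in the cycling cluster and an entry in RefSeq. They are the 200 bases before the transcription start in RefSeq, build GRCm38.p6, all on the minus strand: Hist1h1b (H1f5 in RefSeq) at chr13:21780626-21780825, Hist1h2ae (H2ac8) at chr13:23571221-23571420, Mki67 at chr7:135716380-135716579 and Top2a at chr11:99024190-99024389. Capitals mark the letters CCAAT or ATTGG, bound by NF-Y, and TTTGAA or TTCAAA, the cell cycle homology region letters bound by the DREAM and MuvB complexes.
Hist1h1b: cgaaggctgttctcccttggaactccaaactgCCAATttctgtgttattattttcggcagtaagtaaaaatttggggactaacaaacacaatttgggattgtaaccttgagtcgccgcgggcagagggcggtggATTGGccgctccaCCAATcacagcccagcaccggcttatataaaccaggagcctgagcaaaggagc
Hist1h2ae: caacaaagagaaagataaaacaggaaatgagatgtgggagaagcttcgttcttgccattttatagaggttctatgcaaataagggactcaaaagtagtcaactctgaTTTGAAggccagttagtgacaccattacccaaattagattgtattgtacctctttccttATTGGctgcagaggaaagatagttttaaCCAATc
Mki67: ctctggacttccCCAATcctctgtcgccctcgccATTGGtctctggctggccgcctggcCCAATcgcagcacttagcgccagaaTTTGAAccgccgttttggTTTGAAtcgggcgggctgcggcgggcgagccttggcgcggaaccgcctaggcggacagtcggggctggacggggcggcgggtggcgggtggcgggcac
Top2a: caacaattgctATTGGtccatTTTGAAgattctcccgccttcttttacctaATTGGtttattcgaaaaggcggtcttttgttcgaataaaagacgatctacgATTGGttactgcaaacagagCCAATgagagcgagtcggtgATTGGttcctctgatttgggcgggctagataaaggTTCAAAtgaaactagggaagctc

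These windows held 3 CCAAT matches for Hist1h1b, 2 for Hist1h2ae, 3 for Mki67 and 5 for Top2a on either strand. TTTGAA matched 0, 1, 2 and 2 times in the same order, and TTTCCCGC and TTTGGCGC, letters of E2F sites, matched in none of the 4. Of 32851 RefSeq promoters of this length, 29.3% held CCAAT, against 20 of 22 mitotic members (90.9%), 14 of 21 S members (66.7%) and 2 of 3 broadly expressed members with an entry. TTTGAA was in 12.5% of all promoters, in 8 of the 22 mitotic members (36.4%) and in 2 of the 21 S members (9.52%). TTTAAA was in 9.40% of all promoters, in 4 mitotic and in 2 S members. TTTCCCGC was in 0.776% of all promoters and TTTGGCGC in 0.344%, and they were in 3 and 2 S members and in 0 mitotic members. A match is a string of letters and not a measured binding site, and its absence covers this window only.

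The first comparison asked whether the gates differ in cell cycle transcripts when all cells of a replicate are summed. The S and mitotic sums overlapped between gates. Without pairing replicates by number, Hmgb2, Kif23 and Ezh2 were the members lower in tdTomato+GFP+ cells. With the replicate number as a block, 11 members were lower and 1 was higher. The S sum was 1083, 903 and 1039.8 CPM in tdTomato+GFP+ replicates, against 1186, 952 and 880 CPM in tdTomato-GFP- replicates, and the ranges overlapped. The mitotic sum was 503, 334 and 372 CPM in tdTomato+GFP+ replicates, against 576, 460 and 373 CPM in tdTomato-GFP- replicates, and these overlapped as well. Within same-numbered replicates the mitotic sum was the lower one in tdTomato+GFP+ cells in all 3 pairs, by less than 1 CPM in the third, while the S sum was lower in 2 of 3. The 4 broadly expressed genes summed to 1195, 1101 and 1183 CPM in tdTomato+GFP+ replicates, below the 1481, 1383 and 1250.5 CPM of all 3 tdTomato-GFP- replicates.

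**Figure D1:**
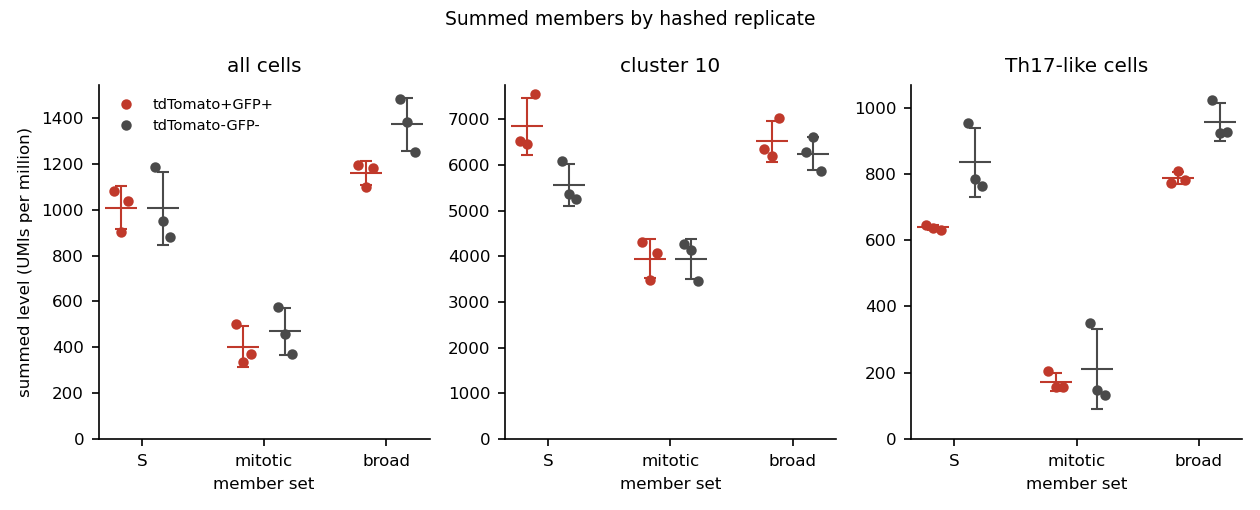
Summed CPM of the S, mitotic and broadly expressed sets over all cells, in cluster 10 (the cycling cluster) and in Th17-like cells, with a point for each hashed replicate, lines for the mean and bars for 1 SD, tdTomato+GFP+ left of tdTomato-GFP-. Over all cells the S and mitotic points of the gates overlap while the broadly expressed points do not, and the S points do not overlap in cluster 10, where tdTomato+GFP+ is higher, or in Th17-like cells, where it is lower.

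Of the 53 members, all tested with edgeR's quasi-likelihood test, 3 were lower and 0 higher in tdTomato+GFP+ cells at an adjusted p below 0.05. Over all 11933 genes tested, 13.4% were lower and 13.0% higher. In this fit, which does not pair replicates by number, the members' share was thus below the background in either direction. 2 members had replicates that did not overlap between gates, both lower, where 18.5% of all genes were lower without overlap and 18.9% higher. The median log2 fold of tdTomato+GFP+ over tdTomato-GFP- cells was 0.03 for the S set, -0.26 for the mitotic set and -0.15 for the broadly expressed set, beside -0.00 for all genes. 13 of 24 S members had a fold above 0, whereas all 25 mitotic members were below 0.

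Hmgb2 (chr8:57511907-57515999, plus strand, GRCm38), a DNA-bending chromatin protein, stood at 416, 396 and 449 CPM in tdTomato+GFP+ replicates, against 622, 587 and 541 CPM in tdTomato-GFP- replicates. Every tdTomato+GFP+ replicate was below every tdTomato-GFP- replicate, and the log2 fold was -0.49 ± 0.06 (SE, adjusted p = 8.61e-04). Kif23 (chr9:61915905-61946774, minus strand), a kinesin of the central spindle that cytokinesis needs, stood at 9.29, 8.29 and 8.43 CPM in tdTomato+GFP+ replicates, against 13.6, 14.3 and 11.2 CPM in tdTomato-GFP- replicates. These did not overlap either, with a log2 fold of -0.62 ± 0.12 (adjusted p = 0.00595). Ezh2 (chr6:47530139-47595341, minus strand), the methyltransferase that lays down H3K27me3, stood at 33.9, 30.0 and 28.9 CPM in tdTomato+GFP+ replicates, against 40.4, 36.9 and 33.2 CPM in tdTomato-GFP- replicates. The highest tdTomato+GFP+ replicate was above the lowest tdTomato-GFP- one, and the log2 fold was -0.27 ± 0.09 (adjusted p = 0.0476).

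The S members with the highest CPM did not pass the unpaired test. Mcm6, a subunit of the replicative helicase, stood at 150, 133 and 118 CPM in tdTomato+GFP+ replicates and at 151, 123 and 105 CPM in tdTomato-GFP- replicates. Dut, the dUTPase, stood at 102, 100 and 103 CPM in tdTomato+GFP+ replicates and at 112, 91.4 and 90.5 CPM in tdTomato-GFP- replicates. In both genes the gates overlapped. Pcna, the sliding clamp of DNA polymerase, stood at 80.0, 70.3 and 74.7 CPM in tdTomato+GFP+ replicates and at 82.7, 67.7 and 63.1 CPM in tdTomato-GFP- replicates. Mcm3, another helicase subunit, had the highest fold of the set, with 97.2, 75.1 and 83.0 CPM in tdTomato+GFP+ replicates and 80.0, 64.1 and 62.8 CPM in tdTomato-GFP- replicates (log2 fold 0.29 ± 0.12, adjusted p = 0.117). Hells, a chromatin remodeller that supports DNA methylation, had 24.5, 20.7 and 27.2 CPM in tdTomato+GFP+ replicates and 30.9, 26.3 and 28.5 CPM in tdTomato-GFP- replicates (-0.27 ± 0.11, adjusted p = 0.0986). Hist1h1b, a linker histone made in S phase, had 84.3, 49.4 and 77.0 CPM in tdTomato+GFP+ replicates and 106, 74.7 and 66.2 CPM in tdTomato-GFP- replicates. Its values and those of Hist1h2ae, a core histone H2A, are uncertain because reads of near-identical histone genes can be split or dropped in counting.

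Of the mitotic set, whose folds were all below 0, Kif23 alone passed the unpaired test, and 6 members passed with the replicate number as a block. Mki67, which coats mitotic chromosomes and is the usual proliferation marker, had 63.0, 43.9 and 55.2 CPM in tdTomato+GFP+ replicates and 75.6, 64.4 and 47.2 CPM in tdTomato-GFP- replicates (log2 fold -0.24 ± 0.21, adjusted p = 0.474). Top2a, the topoisomerase that untangles sister chromatids, had 55.1, 39.1 and 42.6 CPM in tdTomato+GFP+ replicates and 65.3, 51.7 and 41.3 CPM in tdTomato-GFP- replicates. Cdk1, the kinase that starts mitosis, had 22.2, 14.2 and 16.1 CPM in tdTomato+GFP+ replicates and 23.1, 16.2 and 10.9 CPM in tdTomato-GFP- replicates, and its fold of -0.01 was the nearest to 0 in the set. In all 3 genes the spread between replicates of 1 gate exceeded the distance between gates. Cenpa, the histone H3 variant of centromeres, had 57.9, 45.0 and 43.6 CPM in tdTomato+GFP+ replicates and 65.4, 66.9 and 51.5 CPM in tdTomato-GFP- replicates (-0.35 ± 0.14, adjusted p = 0.113). Ube2c, the ubiquitin-conjugating partner of the anaphase-promoting complex, had 43.4, 28.0 and 29.5 CPM in tdTomato+GFP+ replicates and 51.9, 36.3 and 33.1 CPM in tdTomato-GFP- replicates. Among the broadly expressed genes other than Hmgb2, the tubulin Tubb5 had 471, 444 and 464 CPM in tdTomato+GFP+ replicates and 508, 483 and 437 CPM in tdTomato-GFP- replicates. The tubulin Tuba1b had 216, 187 and 184 CPM in tdTomato+GFP+ replicates and 240, 223 and 205 CPM in tdTomato-GFP- replicates (-0.20 ± 0.08, adjusted p = 0.0866). The microtubule regulator Stmn1 had 93.1, 74.1 and 86.5 CPM in tdTomato+GFP+ replicates and 111, 90.2 and 67.1 CPM in tdTomato-GFP- replicates.

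Same-numbered replicates of the 2 gates deviated together, and with the replicate number as a block 12 members passed, 1 higher and 11 lower, beside 16.6% higher and 17.3% lower over all 12277 genes tested. In this paired fit 11 of 53 lower was near the background share, so nothing particular to the members is read from it, and 1 of 53 higher was below the background. Mcm3 was the higher one (log2 fold 0.29 ± 0.05, adjusted p = 0.00203). The lower ones were Mcm4, Hells and Ezh2 of the S set, Cdc20, Cenpa, Cenpe, Ube2c, Tpx2 and Kif23 of the mitotic set, and Hmgb2 and Tuba1b. Within the block Ube2c had a fold of -0.29 ± 0.06 (adjusted p = 0.00575) and Cdc20, the activator of the anaphase-promoting complex, -0.47 ± 0.12 (adjusted p = 0.0209). Without cluster 10, the cycling cluster, 6 members were lower without the block, and without tdTomato+GFP+ replicate 1 also 6. When equal numbers of cells were drawn per cluster from both gates, 0 of 53 passed in edgeR, 3 of them at an unadjusted p below 0.05.

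**Figure D2:**
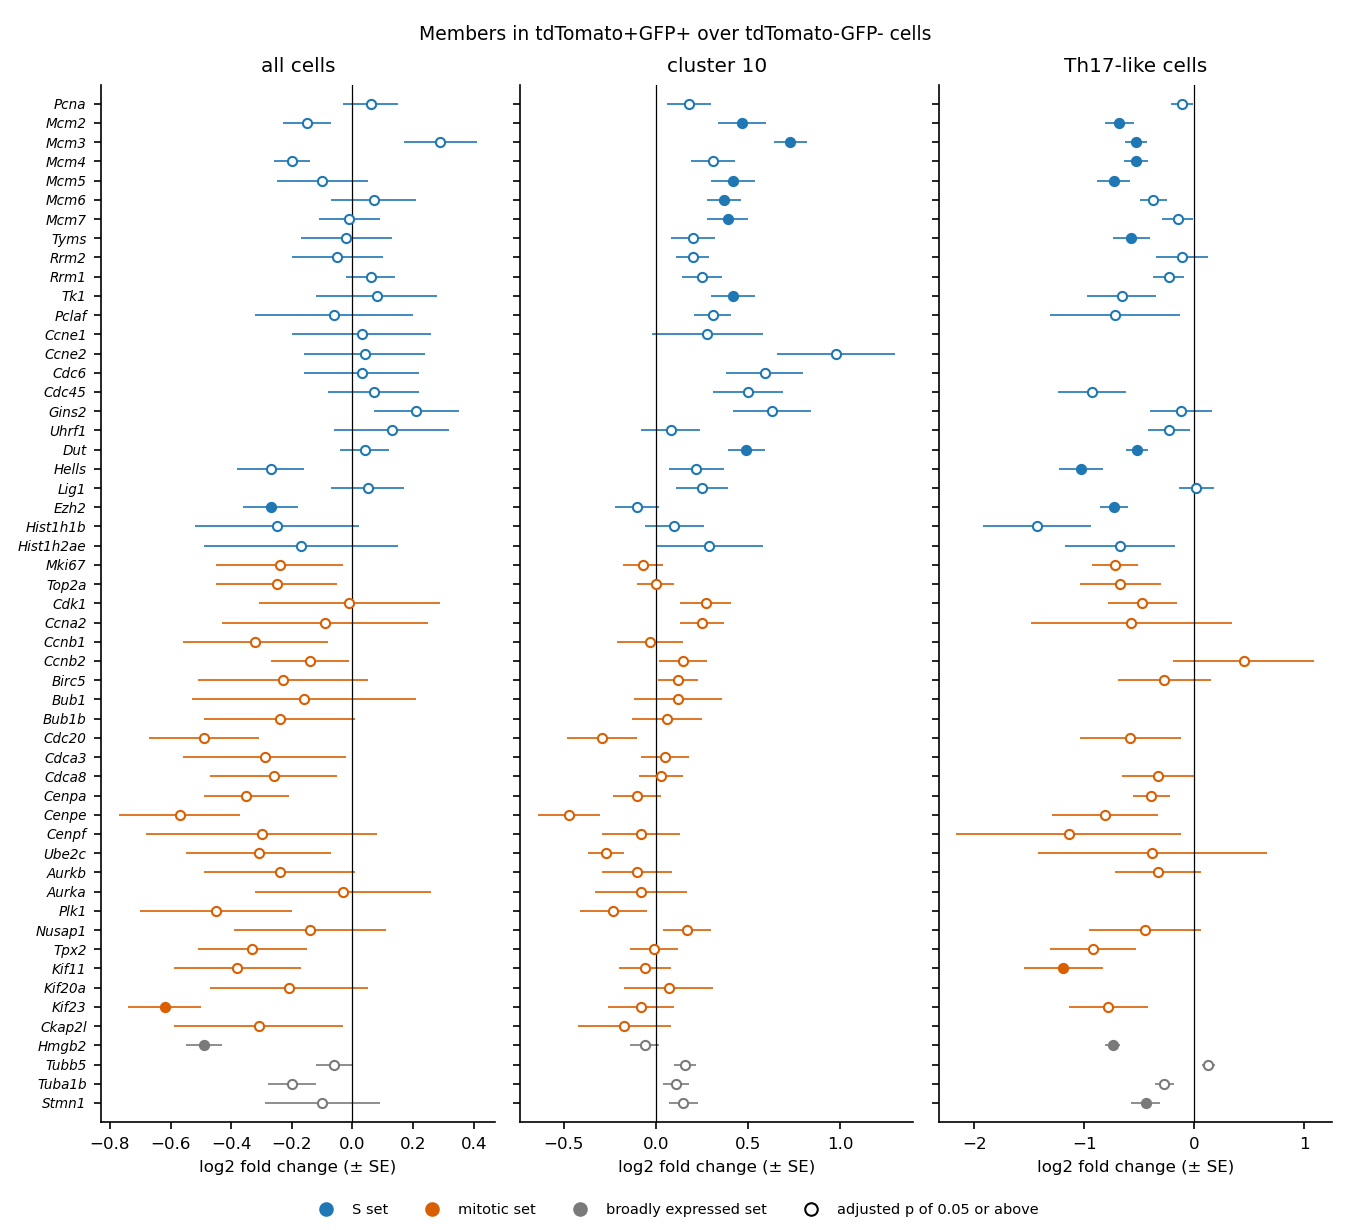
Log2 fold of tdTomato+GFP+ over tdTomato-GFP- cells for the members tested, 53 over all cells, 53 within cluster 10 and 42 within Th17-like cells, with bars of 1 SE and filled points where the adjusted p was below 0.05. The S members lie mostly above 0 in cluster 10 and mostly below 0 in Th17-like cells.

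Cells carrying cell cycle transcripts were counted after thinning each cell to 2000 UMIs, which kept 8260 tdTomato+GFP+ and 9472 tdTomato-GFP- cells. A cell had an S signal with UMIs of at least 3 different S members and a mitotic signal with UMIs of at least 2 different mitotic members. The S signal was present in 10.6%, 9.67% and 9.05% of cells in tdTomato+GFP+ replicates and in 11.5%, 10.0% and 9.47% in tdTomato-GFP- replicates, with overlap, though lower in tdTomato+GFP+ cells in all 3 same-numbered pairs. The mitotic signal was present in 3.92%, 3.30% and 3.57% of cells in tdTomato+GFP+ replicates, against 4.67%, 4.50% and 4.41% in tdTomato-GFP- replicates, and here the gates did not overlap. Without thinning, the mean S share was 25.7% in tdTomato+GFP+ cells, against 28.2% in tdTomato-GFP- cells, and the mean mitotic share 7.60% in tdTomato+GFP+ cells, against 9.57% in tdTomato-GFP- cells. Outside cluster 10 the thinned mitotic share was 2.16% in tdTomato+GFP+ cells, against 2.91% in tdTomato-GFP- cells, still without overlap. Many cells lay near these limits, since 2764 cells had UMIs of 2 S members and 889 of 3, while 2740 had UMIs of 1 mitotic member and 313 of 2.

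From 3 lists of other cell cycle genes, G1 regulators had 4 of 40 higher and 4 of 40 lower in tdTomato+GFP+ cells, replication genes had 0 of 30 higher and 4 lower, and mitosis genes 0 of 50 higher and 6 lower. The list of G1 regulators also held regulators of later phases, among them Cdc25b, Wee1 and Foxm1. The list of mitosis genes also held histone variant and lamin genes such as H2afz and Lmnb1. Over all genes 13.0% were higher and 13.4% lower, so none of the 3 lists stood above the background. The retinoblastoma gene Rb1, which holds E2F in check, stood at 109, 104 and 105 CPM in tdTomato+GFP+ replicates, against 77.7, 74.9 and 70.2 CPM in tdTomato-GFP- replicates (log2 fold 0.50 ± 0.05, adjusted p = 3.60e-04). Cdkn2c, an inhibitor of the cyclin D kinases, stood at 67.5, 53.7 and 48.1 CPM in tdTomato+GFP+ replicates, against 35.2, 26.0 and 25.5 CPM in tdTomato-GFP- replicates (0.93 ± 0.17, adjusted p = 0.00939). Neither gene overlapped between gates. Myc, a driver of growth and cell cycle entry, was lower at a log2 fold of -0.77 ± 0.14 (adjusted p = 0.00808) and lost that call with the replicate block (adjusted p = 0.0548). The phosphatase gene Cdc25b, an activator of CDK1, was lower at -0.83 ± 0.16 (adjusted p = 0.00904). The antiproliferative genes Btg1 and Btg2 moved in opposite directions, with Btg1 at 0.32 ± 0.04 (adjusted p = 0.00108) and Btg2 at -0.50 ± 0.08 (adjusted p = 0.00222). Beside these values, 5 myeloid marker genes summed to 298 to 346 CPM in tdTomato+GFP+ replicates and to 249 to 276 CPM in tdTomato-GFP- replicates, all 5 with UMIs in both gates. 3 NK and ILC markers summed to 0.404 to 1.10 CPM in tdTomato+GFP+ replicates and to 9.97 to 10.4 CPM in tdTomato-GFP- replicates, and the CD8 marker Cd8b1 had 3.81 to 5.16 CPM in tdTomato+GFP+ replicates and 6.31 to 7.94 CPM in tdTomato-GFP- replicates. None of these 3 overlapped between gates. 8 B and plasma cell markers summed to 368 to 2179.9 CPM in tdTomato+GFP+ replicates and to 778 to 2061 CPM in tdTomato-GFP- replicates, and the part of all these markers in the member values was not tested.

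Where in the data these transcripts sat was described over the deposited cell clusters, whose membership was computed from the same counts, members included, so that no test applies. All 53 members were highest in cluster 10, a cluster of 595 cells with a median of 8615 UMIs per cell, which was called cycling-like because all 9 of its listed markers passed. The S sum there averaged 6208 CPM and ranged from 5252 to 7559 CPM over the 6 replicates, and the mitotic sum averaged 3953 CPM with a range from 3452 to 4315 CPM. Cluster 10 held 2.40% ± 0.557 of tdTomato+GFP+ cells and 3.71% ± 0.679 of tdTomato-GFP- cells (SD, n = 3 each), without overlap. Of clustered cells that were not Th17-like, it held 11.8%, 6.35% and 4.86% in tdTomato+GFP+ replicates, against 5.13%, 3.57% and 4.04% in tdTomato-GFP- replicates, which overlapped but were higher in tdTomato+GFP+ cells in all 3 same-numbered pairs. This base leaves out 5665 tdTomato+GFP+ and 1123 tdTomato-GFP- cells. Cluster 10 itself keeps cells with Th17-like clone mates, 65.2% ± 16.7 of mates in tdTomato+GFP+ and 26.3% ± 4.41 in tdTomato-GFP- replicates. The share is therefore no rate of cycling outside the Th17-like class. From cluster 10 cells came 38.9% of the S UMIs, 56.8% of the mitotic UMIs and 32.5% of the broadly expressed UMIs of tdTomato+GFP+ cells. In tdTomato-GFP- cells the shares were 40.6%, 61.9% and 33.3%.

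The steepness of the pattern differed between members. Mcm6 in cluster 10 was 3.71 times its median over the other clusters, the lowest ratio, and Birc5, the survivin subunit of the chromosomal passenger complex, was 241 times, the highest. Mki67 averaged 497 CPM in cluster 10, 46.4 CPM in cluster 4 and 0.868 CPM in cluster 9. Top2a averaged 446, 29.4 and 2.40 CPM in the same clusters. Cdk1 averaged 167, 12 and 0.465 CPM. For these mitotic genes cluster 9, naive or central memory-like by all 7 of its listed markers, was close to 0. Other members kept a floor outside cluster 10, with Pcna at 262 CPM in cluster 10, 80.1 CPM in cluster 4 and 36.6 CPM in cluster 9. Mcm2 averaged 153, 61.1 and 25.1 CPM in these clusters. Rrm2, the inducible subunit of ribonucleotide reductase, had 470, 22.9 and 6.77 CPM. The median ratio of cluster 10 to the other clusters was 9.10 for the S set and 45.9 for the mitotic set, and the sets overlapped, with Pclaf and Hist1h1b of the S set at 168 and 84.6 times and Cenpa of the mitotic set at 3.95 times.

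**Figure D3:**
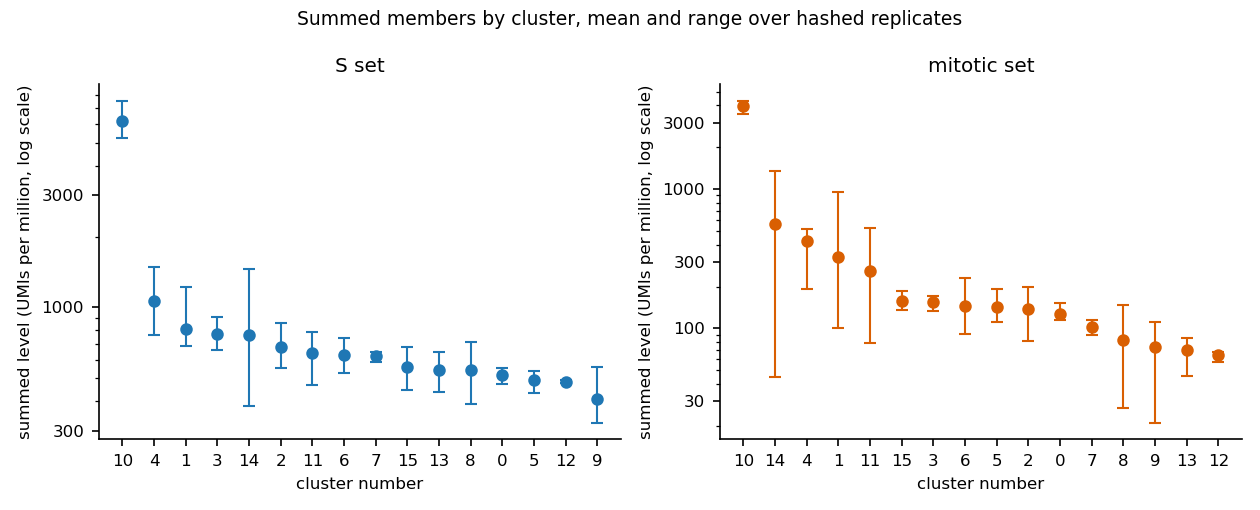
Summed CPM of the S and mitotic sets by deposited cluster on a log axis, both gates together. Points are means over hashed replicates and bars run from the lowest to the highest replicate. Cluster 10 lies above all others, and cluster 4 has the next highest S mean.

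Cluster 4 came second for 16 of 24 S members, 10 of 25 mitotic members and 2 of 4 broadly expressed members. It held 423 tdTomato+GFP+ and 1295 tdTomato-GFP- cells. By the marker rule it passed as Th2, with 4 of 7 listed markers. It is left unnamed here, since of the genes that lead it (Ighv5-16, Igkv10-96, Ccl5, Csf2, Gzma and Il13 first) Il13 alone is on that list. Its S sum averaged 1168 ± 369 CPM in tdTomato+GFP+ and 955 ± 171 CPM in tdTomato-GFP- replicates, and its mitotic sum 393 ± 176 CPM in tdTomato+GFP+ and 456 ± 52.8 CPM in tdTomato-GFP- replicates. Within it 0 of 36 members tested passed between gates in edgeR, 2 of them at an unadjusted p below 0.05, and DESeq2 gave the same counts, where 0.644% of genes were higher and 0.921% lower. The thinned S signal was present in 13.0% ± 1.06 of its tdTomato+GFP+ cells and in 12.5% ± 3.0 of its tdTomato-GFP- cells. The mitotic signal was present in 5.46% ± 1.20 of its tdTomato+GFP+ cells and in 7.26% ± 1.09 of its tdTomato-GFP- cells, with overlap. Both signals were present together in 168 tdTomato+GFP+ cells and 244 tdTomato-GFP- cells, of which 117 and 170 were in cluster 10 and 10 and 38 in cluster 4.

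Cluster 9 gave the level of these signals in cells that should not divide. Its thinned S signal was present in 3.0% ± 2.65 of tdTomato+GFP+ cells and 2.51% ± 1.72 of tdTomato-GFP- cells, and its mitotic signal in 0 of 51 tdTomato+GFP+ cells, which allows a share of up to 5.88%, and in 0.294% ± 0.274 of tdTomato-GFP- cells. Its median depth was 3301 UMIs in tdTomato+GFP+ and 3552 UMIs in tdTomato-GFP- cells. Cluster 14, 61 tdTomato+GFP+ and 142 tdTomato-GFP- cells with a median of 1090.0 UMIs, came second for 7 S and 10 mitotic members. Its mitotic sum ranged from 44.8 to 1348 CPM over 5 replicates with cells enough to sum, and at that depth no order is read from it. Mki67 there averaged 282 CPM with a range from 0 to 728 CPM, while Cdk1 was at 0.

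Cells were assigned to clusters from the same counts, members included, so gate tests within a cluster depend on where its boundary fell. Within cluster 10 the gates differed in the S set. 7 S members were higher in tdTomato+GFP+ cells and 0 members were lower in edgeR's test, beside 1.79% of the 7354 genes tested higher and 2.08% lower. 5 of the 7 are subunits of the MCM2-7 helicase, and the other two, Tk1 and Dut, make or guard thymidine nucleotides. 23 of 24 S members had a fold above 0 with a median of 0.31 on the log2 scale, against a median of -0.03 for the mitotic set, 0.13 for the broadly expressed set and -0.01 for all genes. 14 members were higher without overlap of the replicates (5.58% of all genes with a UMI) and 1 was lower (8.93%).

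The helicase subunits moved together. Mcm3 (chr1:20802968-20820312, minus strand) stood at 452, 483 and 472 CPM in tdTomato+GFP+ replicates, against 306, 268 and 284 CPM in tdTomato-GFP- replicates. It had the lowest adjusted p of the members, with no overlap and a log2 fold of 0.73 ± 0.09 (adjusted p = 1.55e-05). Mcm2 stood at 180, 173 and 185 CPM in tdTomato+GFP+ replicates, against 151, 125 and 101 CPM in tdTomato-GFP- replicates (0.47 ± 0.13, adjusted p = 0.0415). Mcm5 stood at 240, 228 and 260 CPM in tdTomato+GFP+ replicates, against 199, 186 and 151 CPM in tdTomato-GFP- replicates (0.42 ± 0.12, adjusted p = 0.0375). Neither of these overlapped between gates. Mcm6 stood at 489, 480 and 431 CPM in tdTomato+GFP+ replicates, against 398, 359 and 332 CPM in tdTomato-GFP- replicates (0.37 ± 0.09, adjusted p = 0.0215). Mcm7 stood at 247, 243 and 240 CPM in tdTomato+GFP+ replicates, against 201, 192 and 163 CPM in tdTomato-GFP- replicates (0.39 ± 0.11, adjusted p = 0.0439). The remaining subunit, Mcm4, had 238, 218 and 265 CPM in tdTomato+GFP+ replicates and 195, 213 and 171 CPM in tdTomato-GFP- replicates, without overlap but short of the test (0.31 ± 0.12, adjusted p = 0.158). Summed, the 6 subunits reached 1847, 1826 and 1854 CPM in tdTomato+GFP+ replicates, against 1449.8, 1344 and 1202 CPM in tdTomato-GFP- replicates.

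Dut, which removes dUTP so that uracil is kept out of DNA, stood at 514, 506 and 537 CPM in tdTomato+GFP+ replicates of cluster 10, against 428, 329 and 354 CPM in tdTomato-GFP- replicates (log2 fold 0.49 ± 0.10, adjusted p = 0.00279). Tk1, the thymidine kinase of the salvage pathway, stood at 219, 192 and 189 CPM in tdTomato+GFP+ replicates, against 157, 137 and 159 CPM in tdTomato-GFP- replicates (0.42 ± 0.12, adjusted p = 0.0422). Both separated the gates completely. Ccne2, a cyclin E that acts at the entry into S phase, had the highest fold, with 17.7, 25.5 and 35.1 CPM in tdTomato+GFP+ replicates and 12, 16.5 and 11.9 CPM in tdTomato-GFP- replicates, and did not pass (0.98 ± 0.32, adjusted p = 0.0925). Of the mitotic set, Cdk1 had 208, 164 and 183 CPM in tdTomato+GFP+ replicates and 182, 145 and 117 CPM in tdTomato-GFP- replicates, with overlap (0.27 ± 0.14, adjusted p = 0.382). Cenpe, a kinesin that holds chromosomes at the kinetochore, had 61.8, 58.4 and 72.2 CPM in tdTomato+GFP+ replicates and 96.1, 76.9 and 91.4 CPM in tdTomato-GFP- replicates, without overlap (-0.47 ± 0.17, adjusted p = 0.144). Ezh2 was the S member with a fold below 0, at -0.10.

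As sums, the S set of cluster 10 was at 6518, 6464 and 7559 CPM in tdTomato+GFP+ replicates, against 6092, 5365 and 5252 CPM in tdTomato-GFP- replicates, without overlap. The mitotic set was at 4315, 3474 and 4072 CPM in tdTomato+GFP+ replicates and at 4274, 4131 and 3452 CPM in tdTomato-GFP- replicates, with overlap. The thinned S signal was present in 81.1%, 79.6% and 83.3% of cluster 10 cells in tdTomato+GFP+ replicates, against 61.6%, 62.5% and 57.6% in tdTomato-GFP- replicates. The mitotic signal was present in 54.7%, 60.2% and 64.6% of cells in tdTomato+GFP+ replicates, against 47.6%, 47.9% and 39.0% in tdTomato-GFP- replicates. Both signals were thus more frequent in tdTomato+GFP+ cells of the cluster, although the mitotic sum overlapped. Neither signal was present in 17.7% ± 1.49 of tdTomato+GFP+ and in 37.7% ± 4.18 of tdTomato-GFP- cells of cluster 10 (SD, n = 3 each). Median depth in cluster 10 was 9154 UMIs in tdTomato+GFP+ cells and 8144 UMIs in tdTomato-GFP- cells, and whether doublets of other cells take part in it was not tested.

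The number of calls in cluster 10 depended on each library and on the tool. Leaving out tdTomato+GFP+ replicate 1, 2 or 3 left 3, 2 or 4 calls, leaving out tdTomato-GFP- replicate 1, 2 or 3 left 4, 2 or 2, and DESeq2 gave 2, all of them higher.

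The cluster also differed between gates in the T cell genes it carried. Il17a averaged 4754 ± 1242 CPM in its tdTomato+GFP+ cells and 1086 ± 341 CPM in its tdTomato-GFP- cells, missing the threshold without the block (adjusted p = 0.0637) and passing it with the block (adjusted p = 4.14e-10). Ikzf2, Ifng and Tbx21 were lower, with Ikzf2 at 63.9 CPM in tdTomato+GFP+ cells, against 161 CPM in tdTomato-GFP- cells (adjusted p = 3.68e-05). Foxp3 had 64.3 CPM in tdTomato+GFP+ cells and 85.1 CPM in tdTomato-GFP- cells (adjusted p = 0.290). Of 6 epithelial markers, 3 were detected in its tdTomato+GFP+ cells and 6 in its tdTomato-GFP- cells, with sums of 10.6 to 11.7 CPM in tdTomato+GFP+ replicates and 25.3 to 565 CPM in tdTomato-GFP- replicates, and Krt8, Reg3b and Reg3g were at 0 in tdTomato+GFP+ cells. 8 B and plasma cell markers summed to 42.5 to 72.2 CPM in tdTomato+GFP+ replicates and to 107 to 171 CPM in tdTomato-GFP- replicates, with Cd79a, Ms4a1 and Mzb1 at 0 in tdTomato+GFP+ cells. 5 myeloid markers, in contrast, summed to 212 to 408 CPM in tdTomato+GFP+ replicates of the cluster and to 178 to 192 CPM in tdTomato-GFP- replicates, with Itgam at 0 in tdTomato-GFP- cells. Cd8b1 had 1.77 to 3.19 CPM in tdTomato+GFP+ replicates and 8.13 to 9.93 CPM in tdTomato-GFP- replicates, and 3 NK and ILC markers were at 0 in tdTomato+GFP+ cells and summed to 1.99 to 9.08 CPM in tdTomato-GFP- replicates. The part of these markers in the S difference was not tested.

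Other replication genes of cluster 10 had 3 of 29 tested higher and 0 lower, beside 1.79% of genes higher and 2.08% lower. Tipin, which steadies the replication fork, stood at 235, 224 and 246 CPM in tdTomato+GFP+ replicates, against 166, 158 and 143 CPM in tdTomato-GFP- replicates (log2 fold 0.59 ± 0.11, adjusted p = 0.00198). The origin recognition gene Orc6 was higher by 0.62 ± 0.16 (adjusted p = 0.0195) and the flap nuclease gene Fen1 by 0.49 ± 0.13 (adjusted p = 0.0240). These 3 genes act at replication forks or origins, as the helicase does. Among 35 G1 regulators tested, Cdkn2c was higher and Cdkn1b, the p27 inhibitor of cyclin-dependent kinases, was lower, with 63.6, 79.7 and 93.7 CPM in tdTomato+GFP+ replicates, against 121, 122 and 113 CPM in tdTomato-GFP- replicates (-0.58 ± 0.16, adjusted p = 0.0313). Among 49 mitosis genes tested, the histone variant gene H2afz was higher and none was lower.

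In Th17-like cells, 8 members of the S set were lower in tdTomato+GFP+ cells, 4 of which were among those higher in cluster 10. Clusters 1, 2, 3, 12 and 13 were Th17-like by their listed markers and held 5665 tdTomato+GFP+ and 1123 tdTomato-GFP- cells, most often cluster 1 in tdTomato+GFP+ and cluster 2 in tdTomato-GFP- cells. In Th17-like cells 11 of 42 members tested were lower and 0 higher in tdTomato+GFP+ cells (edgeR), beside 6.45% of genes lower and 4.75% higher. Mcm2, Mcm3, Mcm5 and Dut were called in both places with opposite signs, and the difference between these classes of cells was not itself tested. Both classes were drawn from these same counts, members included, and the part of the cluster boundary in the opposite signs was not tested. 8 of the 11 belong to the S set, 1 to the mitotic set and 2 to the broadly expressed set. The median log2 fold was -0.53 for the S set, -0.57 for the mitotic set, -0.36 for the broadly expressed set and 0.01 for all genes. The S sum stood at 646, 637 and 632 CPM in tdTomato+GFP+ replicates, below the 954, 786 and 763 CPM of tdTomato-GFP- replicates.

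Hmgb2 had the lowest adjusted p, with 283, 292 and 285 CPM in tdTomato+GFP+ replicates, against 505, 434 and 456 CPM in tdTomato-GFP- replicates (log2 fold -0.74 ± 0.07, adjusted p = 2.96e-06). Ezh2 stood at 21.5, 22.8 and 20.3 CPM in tdTomato+GFP+ replicates, against 37.5, 33.3 and 32.7 CPM in tdTomato-GFP- replicates (-0.73 ± 0.13, adjusted p = 0.00162). Mcm3 stood at 72.7, 60.0 and 64.0 CPM in tdTomato+GFP+ replicates, against 96.9, 84.9 and 91.2 CPM in tdTomato-GFP- replicates (-0.53 ± 0.10, adjusted p = 0.00224). The gates did not overlap in these 3 genes. Dut stood at 67.8, 77.0 and 74.3 CPM in tdTomato+GFP+ replicates, against 115, 91.2 and 96.1 CPM in tdTomato-GFP- replicates (-0.52 ± 0.10, adjusted p = 0.00245). Mcm2 stood at 27.0, 28.0 and 25.9 CPM in tdTomato+GFP+ replicates, against 43.4, 34.9 and 48.6 CPM in tdTomato-GFP- replicates (-0.68 ± 0.13, adjusted p = 0.00251). Hells stood at 17.1, 12.3 and 12.6 CPM in tdTomato+GFP+ replicates, against 31.2, 19 and 30.7 CPM in tdTomato-GFP- replicates (-1.03 ± 0.20, adjusted p = 0.00307). These 3 did not overlap either. Mcm4 was lower at a log2 fold of -0.53 ± 0.11 (adjusted p = 0.00534) and Mcm5 at -0.73 ± 0.15 (adjusted p = 0.00555).

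Tyms, thymidylate synthase, had 13.9, 15.5 and 16.0 CPM in tdTomato+GFP+ Th17-like replicates, against 22.7, 18.2 and 24.8 CPM in tdTomato-GFP- replicates (log2 fold -0.57 ± 0.17, adjusted p = 0.0383). Kif11, the kinesin that pushes spindle poles apart, was the mitotic member called, at 3.38, 2.57 and 4.13 CPM in tdTomato+GFP+ replicates, against 9.28, 6.35 and 3.96 CPM in tdTomato-GFP- replicates, with overlap (-1.19 ± 0.36, adjusted p = 0.0421), and it lost the call with the replicate block (adjusted p = 0.0564). Stmn1 was the 11th called member. With the replicate block 14 of 44 members tested were lower, beside 985 of 10362 genes. Newly lower were Mki67 of the mitotic set (-0.67 ± 0.15, adjusted p = 3.44e-04), Mcm6, Hist1h1b and Tuba1b. 11 members were lower without overlap (9.15% of genes), and Tubb5 alone was higher without overlap (16.0% of genes), at 345, 361 and 350 CPM in tdTomato+GFP+ replicates and 325, 302 and 315 CPM in tdTomato-GFP- replicates.

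The share of Th17-like cells with a thinned S signal was 8.35%, 8.09% and 7.02% in tdTomato+GFP+ replicates, against 12.5%, 11.9% and 13.3% in tdTomato-GFP- replicates. The mitotic signal was present in 2.11%, 1.84% and 1.89% of cells in tdTomato+GFP+ replicates, against 2.91%, 2.46% and 3.54% in tdTomato-GFP- replicates. Neither share overlapped between gates. Without tdTomato-GFP- replicate 1, which held the highest S sum, 4 members were lower and 1 was higher of 45 tested. Beside these values, 5 stromal markers summed to 29.3 to 39.0 CPM in tdTomato+GFP+ replicates and to 46.8 to 66.4 CPM in tdTomato-GFP- replicates of Th17-like cells, with Acta2 at 0 in tdTomato-GFP- cells, and 5 myeloid markers to 303 to 333 CPM in tdTomato+GFP+ and 240 to 300 CPM in tdTomato-GFP- replicates. Their part in the member values was not tested.

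Among the other cell cycle lists in Th17-like cells, 2 of 31 G1 regulators tested were higher and 4 lower, 3 of 25 replication genes were lower and 3 of 29 mitosis genes were lower, beside 4.75% of genes higher and 6.45% lower. Cdkn1a, the p21 inhibitor of cyclin-dependent kinases, was lower as well, at 121, 152 and 127 CPM in tdTomato+GFP+ replicates, against 345, 351 and 298 CPM in tdTomato-GFP- replicates (log2 fold -1.35 ± 0.09, adjusted p = 1.22e-06). The nuclear lamin gene Lmnb1 was lower at a log2 fold of -0.85 ± 0.07 (adjusted p = 1.84e-06) and Btg2 at -0.89 ± 0.07 (adjusted p = 3.08e-06). Cyclin D3 (Ccnd3), which opens the way into S phase in lymphocytes, was lower at -0.48 ± 0.10 (adjusted p = 0.0104). Genes that restrain the cycle and genes that drive it were thus both among those lower in tdTomato+GFP+ cells. Rb1 was higher by 0.47 ± 0.09 (adjusted p = 0.00401) and Cdkn2c by 0.67 ± 0.13 (adjusted p = 0.00274).

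Cluster by cluster, calls outside cluster 10 numbered 21 of 216 tests over 10 clusters, 20 lower and 1 higher in tdTomato+GFP+ cells. In cluster 1, 5 of 32 members were lower (3.88% of genes): Mcm4, Mcm6, Tyms, Dut and Tuba1b. In cluster 2, 5 of 23 were lower (2.75% of genes): Mcm2, Mcm3, Hells, Hist1h1b and Hmgb2. In cluster 3, 7 of 23 were lower (3.33% of genes): Mcm3, Mcm4, Mcm5, Dut, Hells, Hmgb2 and Tuba1b. These 3 Th17-like clusters thus held 17 of the 20 lower calls, with log2 folds from -2.01 to -0.44. The lowest was that of Hist1h1b in cluster 2, at 9.46, 10.0 and 6.92 CPM in tdTomato+GFP+ replicates, against 48.6, 39.4 and 6.66 CPM in tdTomato-GFP- replicates, so that it came from replicates 1 and 2 and the gates overlapped. With the replicate block Tyms in cluster 1 (adjusted p = 0.0738), Hells in cluster 2 (adjusted p = 0.0504) and Hells and Tuba1b in cluster 3 (adjusted p = 0.0579 and 0.0618) no longer passed. Newly lower with the block were Cenpa and Hmgb2 in cluster 1 (363 of 8567 genes lower) and Dut and Stmn1 in cluster 2 (288 of 8474). Ccnb2 was higher in cluster 3 with the block (3.66 ± 0.98, adjusted p = 0.0353, 162 of 8409 genes higher). It was tested only with the block, where 25 members entered against 23, since no mitotic fold without it exceeded 0.01. Hmgb2 was the 1 member lower in cluster 6 (3.20% of genes), in cluster 11 (2.07%) and in cluster 0 (1.74%), with log2 folds of -0.51, -0.72 and -0.41. By the marker rule cluster 11 passed as epithelial, with 5 of 6 listed markers, and cluster 8 as stromal, with 3 of 5. The part of such transcripts in the member values of these 2 clusters was not tested. In cluster 0, Th2-like by its markers, Tyms was the 1 member higher (0.805% of genes), at 14.5, 30.4 and 49.3 CPM in tdTomato+GFP+ replicates, against 15.4, 16.9 and 17.6 CPM in tdTomato-GFP- replicates, with overlap (1.09 ± 0.26, adjusted p = 0.0453). In clusters 5, 7 and 8, edgeR and DESeq2 called 0 of 15, 0 of 12 and 0 of 18 members, and 2, 0 and 3 of these had an unadjusted p below 0.05 in edgeR. Of all genes tested there, 1.51% were higher and 2.20% lower in cluster 5, 0.395% and 0.118% in cluster 7, and 0.274% and 0.456% in cluster 8. With the replicate block Cenpa was lower in cluster 5 (-1.16 ± 0.33, adjusted p = 0.0229, 3.17% of genes), and Hist1h1b and Mki67 joined Hmgb2 among the lower members of cluster 11 (2.74% of genes). Hist1h1b there had a block fold of -5.41, while the lowest S fold without the block was -0.08. Hist1h1b was thus tested only with the block, where 13 members entered against 10. DESeq2 gave 8 calls in all over the 10 clusters, and leaving out tdTomato+GFP+ replicate 2, tdTomato+GFP+ replicate 3 or tdTomato-GFP- replicate 1 left 9, 12 or 9.

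Whether the gate fold differed between Th17-like cells and all other clustered cells, cluster 10 left out, was tested directly. The other cells were a different mix of clusters in each gate. Cluster 5 held 162 tdTomato+GFP+ and 1496 tdTomato-GFP- cells, cluster 7 held 101 and 839, and cluster 9 held 53 and 703. No fit of this difference took equal cells per cluster, and the part of the mix in it was not tested. 8 of 50 members had a lower gate fold in Th17-like cells and 0 a higher one, beside 3.80% of genes lower and 2.39% higher. The 8 were Mcm2, Mcm3, Mcm5, Mcm6, Tyms, Dut, Ezh2 and Hmgb2. Mcm3 in the other cells had 56.3, 47.8 and 59.4 CPM in tdTomato+GFP+ replicates and 52.4, 46.6 and 41.5 CPM in tdTomato-GFP- replicates, and the difference of the log2 folds was -0.73 ± 0.12 (adjusted p = 1.99e-04). Dut in the other cells had 69.3, 88.6 and 86.8 CPM in tdTomato+GFP+ replicates and 76.3, 73.8 and 70.7 CPM in tdTomato-GFP- replicates, with a difference of -0.70 ± 0.11 (adjusted p = 1.78e-04). In these cells the gates overlapped for both genes. Hmgb2 in the other cells had 340, 380 and 433 CPM in tdTomato+GFP+ replicates and 464, 480 and 453 CPM in tdTomato-GFP- replicates, which did not overlap, so that it was lower in both classes and lower still in Th17-like cells (-0.47 ± 0.10, adjusted p = 0.00595). With cluster 10 kept among the other cells, 21 members were lower. Without tdTomato+GFP+ replicate 3 or tdTomato-GFP- replicate 1, 5 or 3 members passed, and Mcm3, Dut and Hmgb2 passed with each library left out in turn.

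Clone size was read from T cell receptors, with a clonotype defined as the same alpha and beta junction within a hashed replicate. Cells of clonotypes with at least 5 cells were compared with single-cell clonotypes within each gate, with the replicate as a block. Single-cell clonotypes gave 106, 443 and 357 cells in tdTomato+GFP+ replicates and 1465, 1000 and 665 in tdTomato-GFP- replicates. Large clones gave 1122, 2043 and 909 cells in tdTomato+GFP+ replicates and 1324, 681 and 322 in tdTomato-GFP- replicates. The part of these cell numbers in the counts of calls was not tested. In tdTomato+GFP+ cells 1 of 52 members was lower in large clones and 0 higher (edgeR), beside 4.56% of genes lower and 3.59% higher. In tdTomato-GFP- cells 18 of 53 members were higher and 0 lower, beside 6.73% of genes higher and 6.71% lower. The median log2 fold in tdTomato+GFP+ cells was 0.18 for the S set, -0.12 for the mitotic set and -0.14 for the broadly expressed set, beside 0.00 for all genes. In tdTomato-GFP- cells the medians were 0.32, 0.77 and 0.25, beside -0.01 for all genes, and all 53 folds were above 0.

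**Figure D4:**
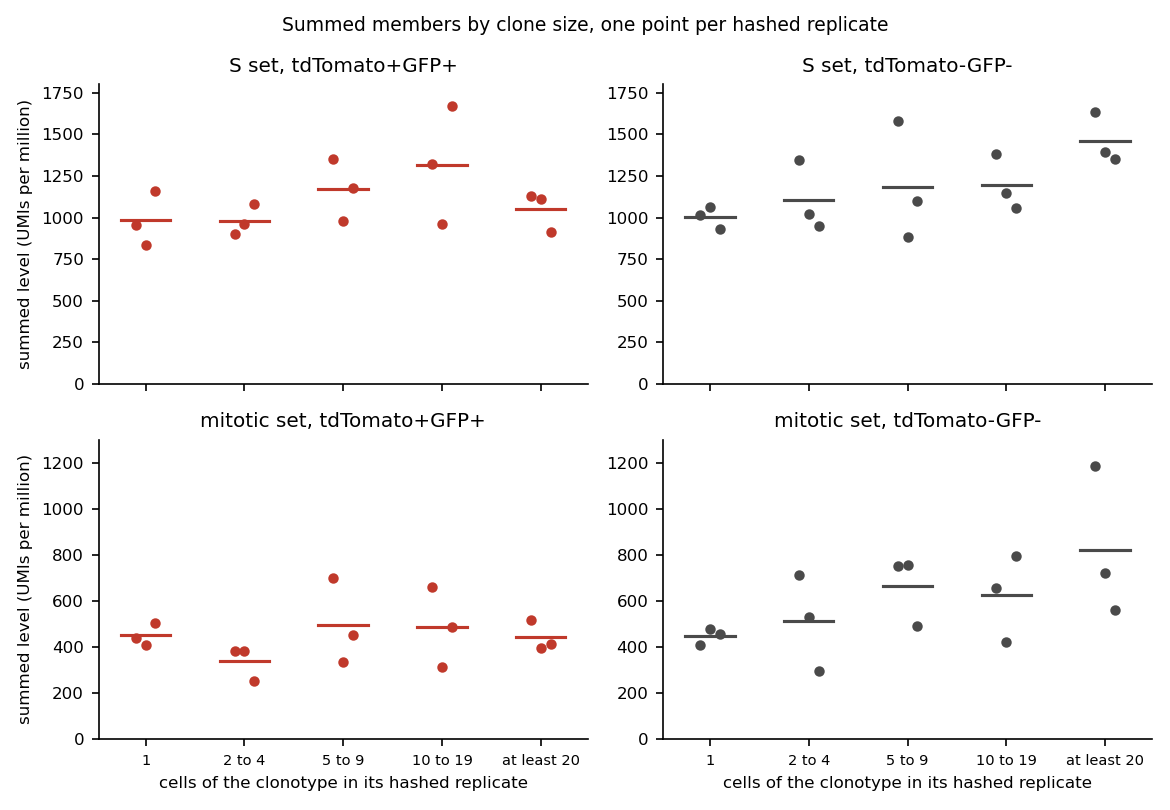
Summed CPM of the S and mitotic sets by clone size class in each gate, with a point for each hashed replicate and the mean as a line. In tdTomato+GFP+ cells the means have no steady order, while in tdTomato-GFP- cells both means are higher in clones of at least 20 cells than in single-cell clonotypes.

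In tdTomato+GFP+ cells Cenpa was the member called, at 59.2, 43.1 and 46.3 CPM in large clones, against 107, 53.2 and 51.1 CPM in single-cell clonotypes (log2 fold -0.45 ± 0.13, adjusted p = 0.0368). The 107 CPM of replicate 1 stood apart from the other single-cell values, and the ranges overlapped. Without replicate 2 or without replicate 3 no member was called, nor was any called by DESeq2, in which 3 had an unadjusted p below 0.05. Cdc6, which loads the helicase, had the highest fold, at 5.09, 6.39 and 4.99 CPM in large clones and 0, 3.30 and 4.02 CPM in single-cell clonotypes (0.82 ± 0.47, adjusted p = 0.393). Ccna2, cyclin A2, had 31.0, 15.0 and 22.5 CPM in large clones and 30.3, 21.7 and 25.3 CPM in single-cell clonotypes. 14 of 53 members were higher in large clones in all 3 replicates (23.5% of all genes).

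Of the 18 members higher in large tdTomato-GFP- clones, 12 were mitotic. Ccna2 stood at 44.6, 31.7 and 30.6 CPM in large clones, against 18.7, 17.6 and 16.6 CPM in single-cell clonotypes (log2 fold 1.01 ± 0.14, adjusted p = 1.53e-04). Cenpf, a kinetochore protein, stood at 34.1, 25.7 and 19.7 CPM in large clones, against 8.38, 14.1 and 7.50 CPM in single-cell clonotypes (1.44 ± 0.22, adjusted p = 0.00140). Kif11 stood at 25.9, 22.2 and 28.5 CPM in large clones, against 12, 14.6 and 14.7 CPM in single-cell clonotypes (0.87 ± 0.16, adjusted p = 0.00180). Every large-clone value was above every single-cell value in these 3 genes. Nusap1 and Tpx2, both spindle assembly proteins, were higher by 0.85 ± 0.19 (adjusted p = 0.00755) and 0.68 ± 0.17 (adjusted p = 0.0143). Cdca3, which brings Wee1 to destruction, was higher by 0.80 ± 0.18 (adjusted p = 0.00775), and Ccnb1, cyclin B1, by 0.97 ± 0.24 (adjusted p = 0.0124). Mki67 was higher by 0.73 ± 0.17 (adjusted p = 0.0423), with 109, 81.4 and 91.9 CPM in large clones, against 52.5, 66.6 and 47.0 CPM in single-cell clonotypes.

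The S members called in tdTomato-GFP- cells were Mcm3, Mcm6, Rrm2, Pclaf, Cdc45 and Hist1h2ae. Rrm2 stood at 68.1, 57.1 and 50.3 CPM in large clones, against 38.0, 43.1 and 39.5 CPM in single-cell clonotypes (log2 fold 0.55 ± 0.12, adjusted p = 0.00548). Mcm3 stood at 115, 83.9 and 87.6 CPM in large clones, against 64.7, 67.0 and 64.9 CPM in single-cell clonotypes (0.52 ± 0.11, adjusted p = 0.00595). Both were higher in large clones of each replicate. Hist1h2ae, with the uncertainty of histone genes given above, had 88.7, 54.3 and 68.6 CPM in large clones, against 55.5, 45.5 and 52.8 CPM in single-cell clonotypes (0.43 ± 0.10, adjusted p = 0.0105). Over the members, 34 of 53 were higher in large clones in all 3 tdTomato-GFP- replicates (21.4% of all genes), 18 of them mitotic.

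**Figure D5:**
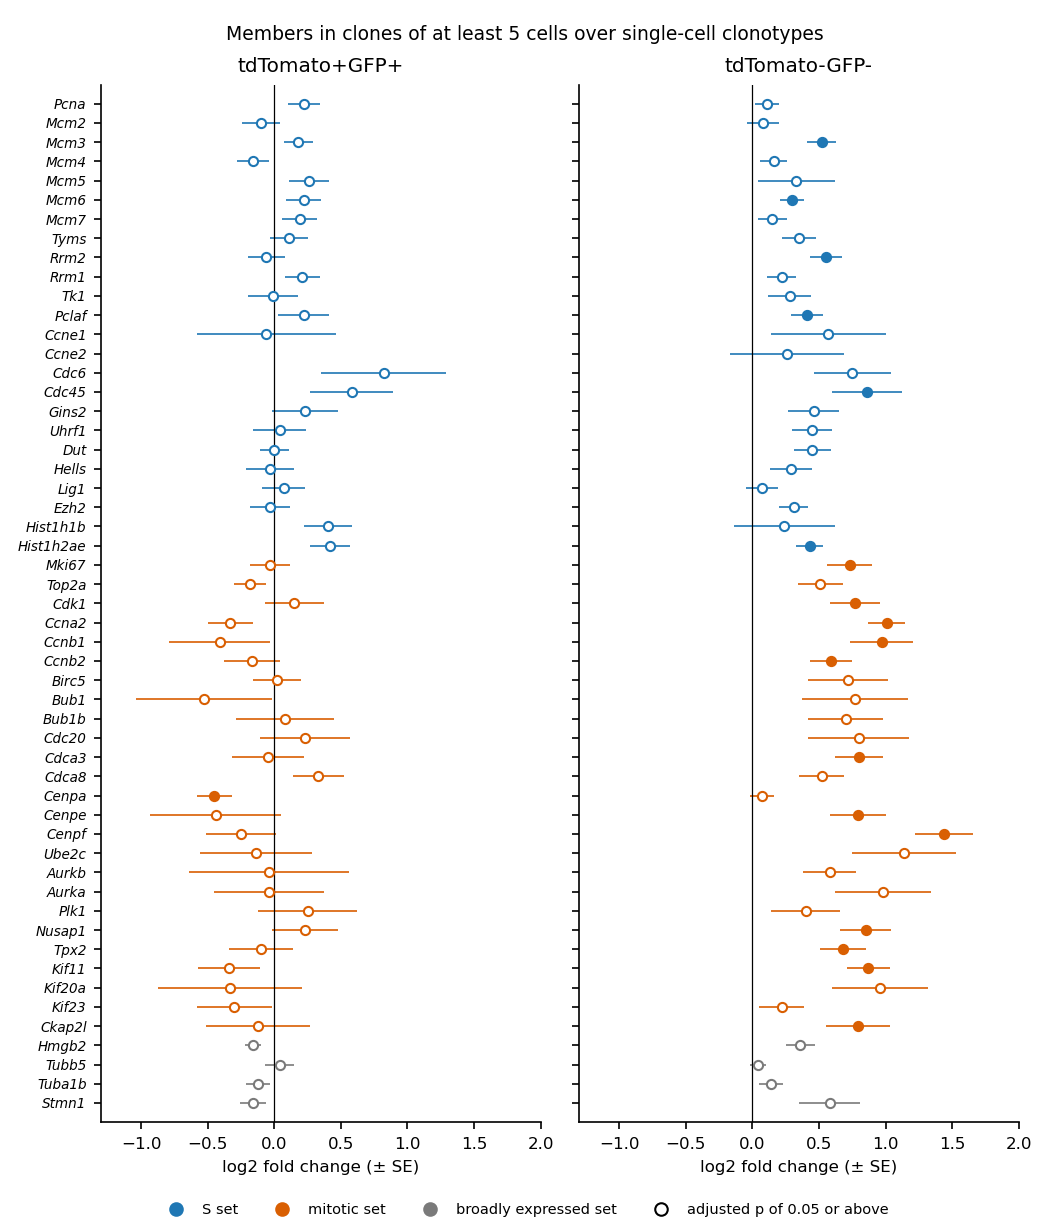
Log2 fold of large clones over single-cell clonotypes for the 53 members in tdTomato+GFP+ cells (Ccne2 not tested there) and tdTomato-GFP- cells, with bars of 1 SE and filled points where the adjusted p was below 0.05. The tdTomato+GFP+ folds lie on both sides of 0, and all tdTomato-GFP- folds are above 0.

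The difference of the clone size fold between the gates was tested in a fit added after the data had been seen. 3 of 53 members passed, each with a lower fold in tdTomato+GFP+ cells, beside 0.943% of genes lower and 0.457% higher. The difference was -1.34 ± 0.22 for Ccna2 (adjusted p = 0.00294), -1.69 ± 0.38 for Cenpf (adjusted p = 0.0413) and -1.21 ± 0.28 for Kif11 (adjusted p = 0.0364). Without cluster 10, 0 of 45 members passed in edgeR and 4 had an unadjusted p below 0.05, and with the same cells per cluster on both sides 0 of 51 passed and 11 had one. Leaving out tdTomato+GFP+ replicate 1, 2 or 3 left 3, 0 or 1 calls, and leaving out tdTomato-GFP- replicate 1, 2 or 3 left 0, 7 or 1.

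Clone size went with cell type and, for the calls, with single libraries. Th17-like cells made up 74.4% ± 6.20 of large-clone cells and 36.3% ± 3.11 of single-cell clonotypes in tdTomato+GFP+ cells, and 25.4% ± 10.3 of large-clone cells and 4.08% ± 0.935 of single-cell clonotypes in tdTomato-GFP- cells. Cluster 10 made up 2.56% and 3.45% in tdTomato+GFP+ cells and 4.08% and 4.56% in tdTomato-GFP- cells, in the same order. For tdTomato+GFP+ cells, taking the same cells per cluster on both sides gave 5 calls of 48, all higher in large clones (0.250% of genes), namely Tyms at 0.75, Pclaf at 0.79, Hist1h1b at 1.28, Hist1h2ae at 1.25 and Cdca8 at 0.88 on the log2 scale, while Cenpa did not pass (-0.23, adjusted p = 0.829). Without cluster 10, Pclaf (2.24) and Cdc45 (2.25) were higher and Cenpa and Hmgb2 lower. For tdTomato-GFP- cells, taking the same cells per cluster on both sides gave 21 calls, all higher (1.99% of genes), leaving cluster 10 out gave 4 of 44 and leaving out replicate 1 gave 5, while leaving out replicate 2 gave 31. Within Th17-like cells alone 0 of 33 members passed in tdTomato+GFP+ cells and 0 of 19 in tdTomato-GFP- cells in edgeR, with 2 and 3 at an unadjusted p below 0.05.

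By share of cells, the thinned S signal in tdTomato+GFP+ cells was present in 11.5%, 9.14% and 9.66% of large-clone cells and in 12.5%, 10.8% and 10.3% of single-cell clonotypes, and the mitotic signal in 3.66% ± 0.581 of large-clone cells and 5.02% ± 1.54 of single-cell clonotypes. In tdTomato-GFP- cells the S signal was present in 14.2%, 13.5% and 15.3% of large-clone cells, against 9.51%, 9.38% and 8.05% of single-cell clonotypes, without overlap. The mitotic signal there was present in 6.18%, 4.86% and 6.39% of large-clone cells and in 3.88%, 5.21% and 4.02% of single-cell clonotypes, with overlap. This mean difference of 1.44 percentage points was 2.34 without replicate 2. Over clones of 1, 2 to 4, 5 to 9, 10 to 19 and at least 20 cells, the mitotic sum averaged 450, 340, 496, 488 and 444 CPM for tdTomato+GFP+ replicates and 448, 511, 667, 625 and 821 CPM for tdTomato-GFP- replicates. The S sum averaged 983, 980, 1169.6, 1318 and 1053 CPM for tdTomato+GFP+ replicates and 1004, 1105, 1186, 1197 and 1459.7 CPM for tdTomato-GFP- replicates. For clones of at least 20 cells the SD was 324 CPM for the mitotic and 152 CPM for the S sum in tdTomato-GFP- cells.

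Among other cell cycle genes of large tdTomato+GFP+ clones, 1 of 36 G1 regulators was higher and 3 lower, and 0 of 27 replication genes and 0 of 43 mitosis genes passed in edgeR, beside 3.59% of genes higher and 4.56% lower. In large tdTomato-GFP- clones 9 of 37 G1 regulators tested were higher and 1 lower, 3 of 28 replication genes were higher and 0 lower, and of 49 mitosis genes 14 rose and 1 fell, beside 6.73% of genes higher and 6.71% lower.

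Cells of cluster 10 carried the receptors of other clusters. Of its cells, 162 tdTomato+GFP+ and 317 tdTomato-GFP- cells had both chains, in 131 and 280 clonotypes, and 132 and 166 of them shared a clonotype with a cell outside the cluster. In tdTomato+GFP+ replicates 78.5%, 70.6% and 46.4% of these mates were Th17-like, beside 81.7%, 71.6% and 67.3% of all cells of expanded clonotypes. In tdTomato-GFP- replicates 21.5%, 27.1% and 30.2% of mates were Th17-like, beside 17.1%, 17.1% and 25.9% of all expanded cells. Mates in cluster 4 made up 7.74% ± 6.01 in tdTomato+GFP+ and 17.5% ± 2.31 in tdTomato-GFP- replicates, beside 4.86% ± 0.432 and 14.7% ± 3.70 of all expanded cells. Clonotypes of at least 5 cells held 81.8%, 67.9% and 42.5% of cluster 10 cells with both chains in tdTomato+GFP+ replicates, beside 81.5%, 66.1% and 55.3% of all such cells. In tdTomato-GFP- replicates they held 36.8%, 28.4% and 23.5% of cluster 10 cells, beside 35.7%, 30.7% and 25.4% of all such cells. At most 5 cluster 10 cells came from 1 clonotype of 1 replicate in either gate, so no single clone made up the cluster.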

How the data were processed

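CD4 T cells of 2 sort gates were profiled by single-cell RNA and T cell receptor sequencing, 1 lane per gate with 3 hashed replicates. The authors deposited whole UMI counts per cell and gene, a cell table and a receptor table. Per the submitters' processing notes, the tools were Cell Ranger (version not given in the sources used here) and Scanpy 1.7.2 and the build was mm10/GRCm38, and of the 3′ v3 and 5′ v2 chemistries the labels do not give the one applied. In the deposited cell table, hashtag counts (43.8% of all UMIs with the hashtag columns) and the hashtag fraction give the replicate of a cell, and 4721 of 23595 cells without one were left out. 216 cells without a cluster entered only the sums over all cells. Barcodes present in both lanes numbered 174. No doublet caller was run, and whether the authors removed doublets is not given in the sources used here.

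UMIs were summed per hashed replicate and class of cells and tested with edgeR 4.0.16 (quasi-likelihood, robust, TMM, filterByExpr with a minimum count of 10) over all genes, with Benjamini-Hochberg adjustment, and DESeq2 1.42.0 as an alternative (limma 3.58.1, R 4.3.3, Python 3.11.15). SE is the log2 fold over the square root of F. CPM values were computed from the deposited counts without TMM factors, which lay between 0.99 and 1.01. The p-values measure the spread between hashed replicates, which the labels call biological, and limits from a count of 0 cover counting error only. Sums over members and shares of cells carry no p, although an exact test had been planned for them, because the members were chosen with results known.

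The members and lists were chosen with earlier results of these data known. Genes named are the members called, the 4 S and 4 mitotic members with the highest CPM, the broadly expressed members, the tested members with the highest and lowest fold of a set, at most 10 members called per class or clone comparison, and 6 members by cluster. Other cell cycle genes were named by adjusted p, at most 10 per comparison. Clusters were named from fixed marker lists where at least 3 markers and 50% of a list were at 20 CPM or more and 1.5-fold over the other cells, limits set after the data were seen. Clusters with at least 20 cells in each replicate were fitted.

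Deviations from the gate means correlated at 0.31, 0.24 and 0.32 between same-numbered replicates of the gates and at -0.26 to -0.07 between others, and same-numbered replicates shared 19, 23 and 33 clonotypes, others of the 2 gates 0 to 3. The numbers were therefore taken to pair the samples, although the labels do not say so, and this check was computed after the blocked calls had been seen. Different-numbered replicates of the same gate also shared clonotypes. Replicates 1 and 2, 1 and 3, and 2 and 3 shared 13, 1 and 12 in tdTomato+GFP+ cells and 21, 3 and 9 in tdTomato-GFP- cells. Whether cells were assigned to a wrong replicate was not tested.

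On simulated counts (5 simulations, 200 changed genes each), 2-fold changes were recovered for 72.8% of genes over all cells (11933 genes), 63.6% in cluster 10 (7354 genes), 70.1% in Th17-like cells (10075 genes), and by clone size for 73.7% in tdTomato+GFP+ (10090 genes) and 79.4% in tdTomato-GFP- cells (10558 genes). With each gene's own dispersion, false calls were 7.67%, 8.44%, 6.88%, 14.6% and 12.5% of calls in that order, above the nominal 5%, and mostly at genes whose dispersion was over 2 times the trend. Of the called members, Mki67 at 3.61 times and Cenpf at 2.57 times the trend in the tdTomato-GFP- clone comparison are of that kind.

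Promoters came from RefSeq (GRCm38.p6), with 46 of 53 members matched, 3 by an older symbol. Coordinates of genes are from GENCODE on GRCm38. Values of some single genes are not reported here.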

Additional observations from a re-analysis of the deposited data

Results flagged for a closer look

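The effect of the gate differed by test between Th17-like cells and other clustered cells (cluster 10 left out) for 8 members, each with the lower fold of tdTomato+GFP+ over tdTomato-GFP- cells in Th17-like cells. In edgeR's interaction test the log2 difference was -0.62 ± 0.17 for Mcm2 (SE, adjusted p = 0.0296), -0.73 ± 0.12 for Mcm3 (adjusted p = 1.99e-04), -0.67 ± 0.19 for Mcm5 (adjusted p = 0.0302) and -0.33 ± 0.10 for Mcm6 (adjusted p = 0.0458). It was -1.24 ± 0.30 for Tyms (adjusted p = 0.0267), -0.70 ± 0.11 for Dut (adjusted p = 1.78e-04), -0.79 ± 0.18 for Ezh2 (adjusted p = 0.00493) and -0.47 ± 0.10 for Hmgb2 (adjusted p = 0.00595). Tyms in the other cells had 14.2, 25.6 and 44.6 CPM in tdTomato+GFP+ replicates and 17.7, 17.9 and 18.2 CPM in tdTomato-GFP- replicates, so its difference goes with spread among the tdTomato+GFP+ libraries, and their part in it was not tested. The other cells also held a different mix of clusters in each gate, and the part of that mix in the 8 differences was not tested.

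The effect of clone size differed by test between tdTomato+GFP+ and tdTomato-GFP- cells for 3 mitotic members, by -1.34 ± 0.22 for Ccna2 (adjusted p = 0.00294), -1.69 ± 0.38 for Cenpf (adjusted p = 0.0413) and -1.21 ± 0.28 for Kif11 (adjusted p = 0.0364). This fit was added after the data had been seen. In edgeR 0 members passed without cluster 10, with the same cells per cluster, without tdTomato+GFP+ replicate 2 or without tdTomato-GFP- replicate 1.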

How the results depend on the processing

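Over 756 alternative fits of the members named, 498 kept direction and side of the threshold, 257 kept the direction without passing, and 1 turned round, Hist1h2ae by clone size in tdTomato-GFP- cells without cluster 10, at -0.01 (adjusted p = 0.998). Depth limits low members such as Ccne1, and a p above the threshold does not show equal levels. Members called between gates over all cells, 3 in the comparison reported, were 12 with the replicate block, 0 with the same cells per cluster, 6 without cluster 10, 5 in clustered cells only, 1 with 1 cell per clonotype and 10 after thinning to 2000 UMIs, and 2 to 6 when 1 library was left out. In single clusters the block took the calls to 1, against 0, in cluster 5 and to 3, against 1, in cluster 11, and moved no other cluster's count, nor that of Th17-like cells, by over 1.5 times. In cluster 10, 7 calls became 2 in DESeq2 and 2 to 4 with 1 library left out. In Th17-like cells 11 became 5 to 14 with 1 library left out. In the other 10 clusters together 21 became 8 in DESeq2, 39 without a filter on low counts and 9 to 19 with 1 library left out.

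By clone size in tdTomato+GFP+ cells, 1 call, lower in large clones, became 0 in DESeq2, 3 (2 higher) without a filter, 0 with no replicate block, 2 (both higher) for clones of at least 10 cells, 3 (all lower) by the beta junction alone, 4 (2 higher) without cluster 10, 0 in Th17-like cells only, 5 (all higher) with the same cells per cluster, and 0 to 1 with 1 library left out. In tdTomato-GFP- cells 18 became 5 in DESeq2, 30 without a filter, 4 without cluster 10, 0 in Th17-like cells only and 5 to 31 with 1 library left out. The difference of the gate effect between Th17-like and other cells had 8 calls, 21 with cluster 10 kept and 3 to 11 with 1 library left out. The difference of the clone size effect between gates had 3, 0 without cluster 10 or with the same cells per cluster, and 0 to 7 with 1 library left out.

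The mitotic sum of tdTomato+GFP+ minus tdTomato-GFP- replicates, -66.5 CPM, was -278 CPM with the 4 broadly expressed members. For the share of cells, the S difference between gates of -0.560 percentage points was -2.46 without thinning. The mitotic one of -0.930 was -1.96 without thinning, -0.514 at 1000 UMIs, -1.42 at 3000 UMIs, -3.05 with at least 1 member and -0.418 with at least 5. Large clones minus single-cell clonotypes in tdTomato+GFP+ cells gave -1.13 for S, 3.10 with at least 1 member, -8.23 without thinning and 0.380 by the beta junction alone, and -1.36 for mitosis, -3.46 with at least 1 member, -0.0931 with at least 5 and -3.49 without thinning. In tdTomato-GFP- cells they gave 5.37 for S, 6.49 with at least 1 member, 2.69 with at least 5, 3.77 without thinning and 4.42 to 6.0 with 1 library left out, and 1.44 for mitosis, 2.42 with at least 1 member and 0.977 to 2.34 with 1 library left out. The other settings tried moved the sums and shares by less than 1 SD between replicates and the counts by at most 1.5 times, and the cause of each change was not tested.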

Other observations

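Cells without a hashed replicate entered no comparison. They numbered 2504 in the tdTomato+GFP+ and 2217 in the tdTomato-GFP- lane, with median depths of 7676 and 7103 UMIs. Their S sum was 858 CPM in the tdTomato+GFP+ and 923 CPM in the tdTomato-GFP- lane, their mitotic sum 319 CPM and 425 CPM, and the broadly expressed sum 1012 CPM and 1229 CPM. Cells with a hashed replicate, pooled per lane, had S sums of 975 CPM and 1061 CPM and mitotic sums of 377 CPM and 505 CPM at median depths of 3632 and 3860.0 UMIs. Cells with a hashed replicate but no cluster, 89 tdTomato+GFP+ and 127 tdTomato-GFP- cells, had S sums of 447 CPM and 400 CPM and mitotic sums of 307 CPM and 97.4 CPM.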
